A study of Mus musculus with 4 samples.

Results

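The genes that encode the translation initiation and elongation factors of the mouse were followed in R1 embryonic stem cells after knockdown of the long noncoding RNA Cyrano. They were taken as every symbol in the count files that begins with Eif1 to Eif6, Eef1 or Eef2. Of 67 symbols with these prefixes, 5 were left out: Eif2c1 to Eif2c4, older names of Argonaute genes, and Eif2ak2, an antiviral eIF2 alpha kinase. The remaining 62 factor genes are among 23366 symbols in the files. R1 is a mouse line of 129X1 x 129S1 strain, kept with LIF on gelatin. Control cells were given a non-targeting short hairpin RNA and knockdown cells a hairpin against Cyrano, both from the vector pSicoR-Ef1a-mCh-Puro, which marks cells with a fluorescent protein and puromycin resistance. All cells were thus transfected and then enriched by puromycin or by sorting, and the sources used here do not say which way served which library. Each group had 2 libraries of polyadenylated RNA. Nothing in the labels says how the cultures were separated, so a p-value here speaks only of how far these libraries lie apart.

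Translation initiation begins when eIF2, bound to GTP and the initiator tRNA, joins the small ribosomal subunit together with eIF1, eIF1A, eIF3 and eIF5. The cap-binding complex eIF4F brings in the mRNA, the start codon is chosen, and eIF5B joins the large subunit. During elongation eEF1A delivers the aminoacyl-tRNAs, the eEF1B subunits recharge it with GTP, eEF2 moves the ribosome along, and eIF5A eases difficult peptide bonds. Phosphorylation of the alpha subunit of eIF2 and binding of eIF4E by the 4E-BPs are the known brakes on initiation.

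Counts over genes summed to between 16854403 and 22321102 per library. Cyrano, listed as 1700020I14Rik, was at 24.8 and 15.2 CPM (counts per 1000000, on library sizes scaled by the TMM method) in control libraries 1 and 2. It was at 3.99 and 3.16 CPM in knockdown libraries 1 and 2. Its log2 fold change was -2.48 ± 0.30 (SE), and it fell by edgeR's quasi-likelihood test (adjusted p = 0.00702, Benjamini-Hochberg over 13199 genes tested). The adjusted p was 0.12 without control library 1 and 0.0567 without control library 2. The libraries differed in other ways too. The ribosomal RNA precursor Rn45s took 17.5% and 15.9% of the counts of the controls and 12.3% and 11.03% of those after knockdown. The first principal component of all genes separated the libraries within a group as well, at -40.0 and -3.68 for the controls against 6 and 37.7 for the knockdown libraries. The 8 stem cell markers were all present and summed to 4412 and 4620 CPM in the controls and 4287 and 4115 after knockdown. Within that sum Nanog differed by -0.76 ± 0.14 on the log2 scale (adjusted p = 0.0696 by edgeR), Esrrb -0.35 ± 0.15 and Dppa5a 0.40 ± 0.16. The 6 primitive endoderm markers summed to 98.0 and 116 CPM in the controls and 158 and 195 after knockdown. Of 7 fibroblast markers, 3 (Col3a1, Lum and Dcn) had no count in any library, and the list summed to 43.3 and 29.5 CPM in the controls and 56.1 and 30.2 CPM after knockdown. The 6 trophectoderm markers summed to 39.8 to 48.1 CPM in the controls and 43.2 to 56.0 CPM after knockdown. The part of these cell types in the values below was not tested. In such bulk RNA, fewer cells of a type and less RNA per cell cannot be told apart.

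Cyrano is known for a conserved site for miR-7, and the title of the series links it to microRNA activity, so the miR-7 sequences and their matches in factor gene 3′ UTRs are shown first. The mature forms below are from RefSeq, 5′ to 3′, with the seed (bases 2 to 8) in capitals, and both forms share it.
mmu-miR-7a-5p: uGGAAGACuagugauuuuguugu
mmu-miR-7b-5p: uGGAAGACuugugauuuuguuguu
Matches were sought on the transcript strand only, as GTCTTCC or TCTTCCA, and where these overlap they count as 1 site. The longest annotated 3′ UTR of each gene was searched in GENCODE M21 (GRCm38), if it had at least 50 bases. At least 1 match was found in 15 of the 60 factor genes tested (25%). Over all 12588 tested genes with such a UTR the share was 26.4%. The lines below give 30 bases around the longest type of match, which all 3 genes Eif5b, Eef2k and Eif2d hold, and around the match of the factor gene with the lowest p. The match is in capitals, and each stretch lies in a 3′ UTR exon.
Eif5b (chr1:38055119-38055148, + strand): caacaaagagtGTCTTCCAgaatctttagg
Eef2k (chr7:120906270-120906299, + strand): tgatcagttctGTCTTCCAgtgctcaaagc
Eif2d (chr1:131179993-131180022, + strand): tatctgccctgGTCTTCCAtgactccattg
Eif2s2 (chr2:154872221-154872250, - strand): agaatagatagGTCTTCCcttgaaagagtg
The log2 fold change, knockdown against control, was 0.13 ± 0.19 for Eif5b, -0.18 ± 0.20 for Eef2k and -0.01 ± 0.14 for Eif2d. Of the 15 factor genes with a match, 7 had a log2 fold change above 0 and 8 below, with a median of -0.01. The median was 0.08 for the factor genes without a match. Over all genes it was -0.04 with a match and 0.01 without, and a match is a description, not a bound site.

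Taken over all factors, no gene passed the adjusted threshold of 0.05 in edgeR, in either direction. Across all genes tested 11 of 13199 passed (0.0833%), 5 higher after knockdown (0.0379%) and 6 lower (0.0455%). The lowest adjusted p of a factor gene was 0.0752, for Eif2s2. With limma-voom no factor gene passed either, and with DESeq2 only Eif2s2 did (adjusted p = 0.000657). Of all 13199 genes, 1 passed as higher and 2 as lower with limma-voom, and 72 and 64 with DESeq2. At an unadjusted p under 0.05 there were 11 factor genes of 60 tested, beside 11.6% of all genes. Of these, 8 were higher after knockdown (6.18% of all genes) and 3 lower (5.43%). Adjusting for transcript length and GC content gave 4 higher and 6 lower, beside 11.9% of all genes in either direction. With single libraries left out, which leaves 1 library in a group, these numbers changed, and so did the share over all genes. In those fits Eif2s2 ran from 0.68 to 0.89 on the log2 scale. Both knockdown libraries lay above both controls in 21 factor genes (22.3% of all genes) and below both in 12 (21.3%). Together that is 33 of 60, or 55.0%, beside 43.5% of all genes.

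Well-expressed genes pass such counts more easily, and most factor genes are well expressed. Among genes at 50 CPM or more, 27 of 45 factor genes did not overlap (60%), beside 47.8% of all such genes, and 7 had an unadjusted p under 0.05 (15.6%), beside 14.4%. The log2 fold change was above 0 in 36 of 60 factor genes (49.8% of all genes) and below 0 in 24, with a median of 0.08 (all genes, -0.00). Most differences were small, since 33 of 60 lay within 0.2 of 0 on the log2 scale, beside 45.7% of all genes. All factor genes together summed to 28190 and 28040 CPM in the controls and 28660 and 28880 after knockdown. That is a log2 ratio of 0.03 (exact two-sided permutation p = 0.333, the smallest that 2 libraries against 2 allow; 0.5 adjusted over 12 sums). Of raw counts they took a share of 2.75% and 2.77% in the controls against 2.87% and 2.995% after knockdown. Without Rn45s the shares were 3.33%, 3.29%, 3.27% and 3.37%, and the groups overlapped.

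**Figure D1:**
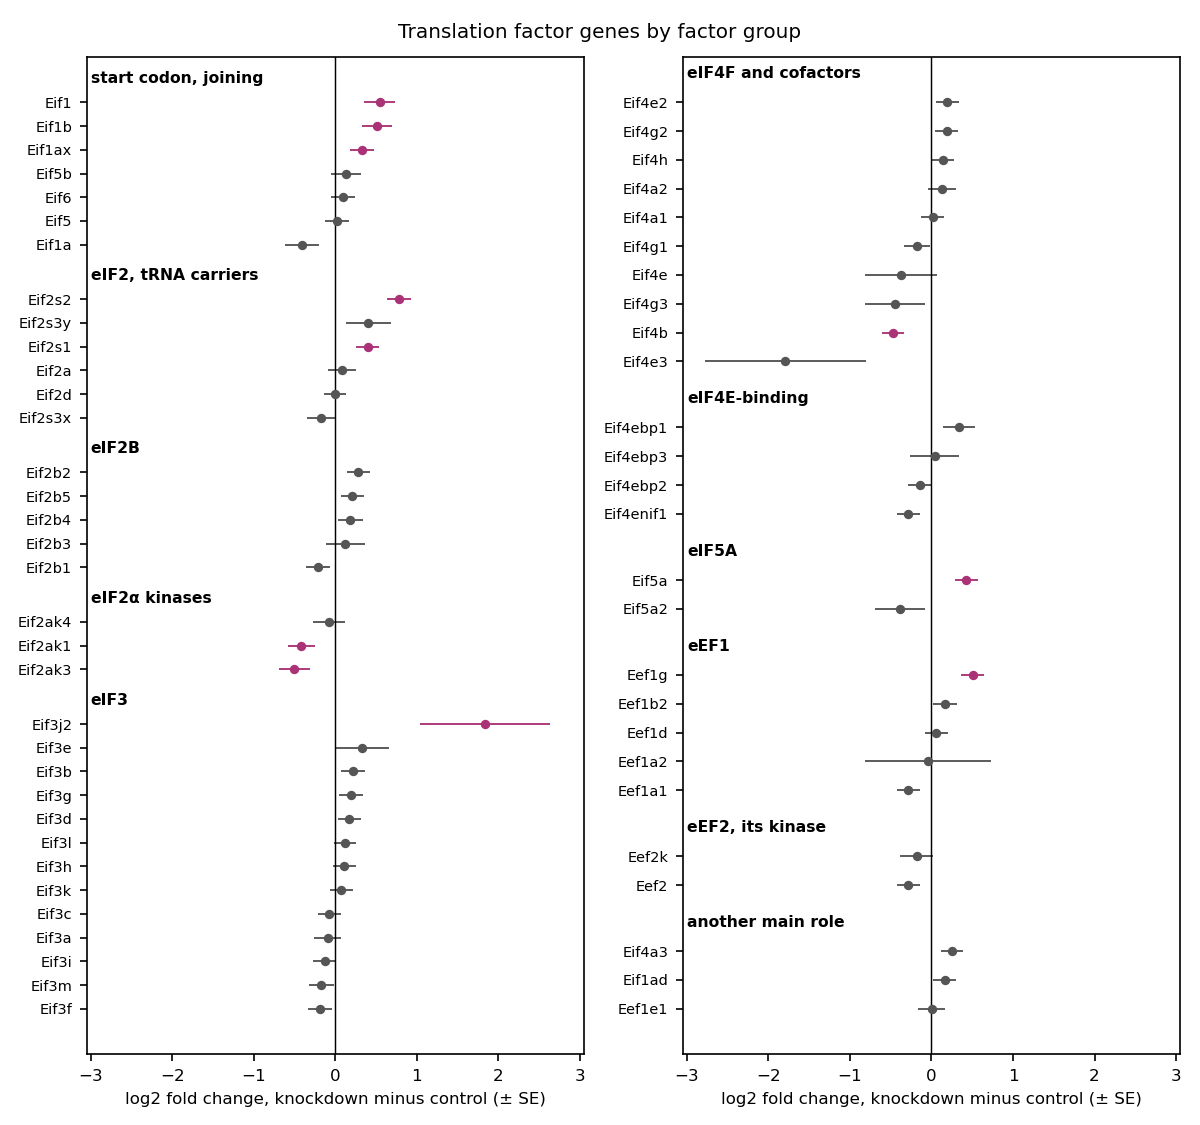
Log2 fold change, knockdown against control, of each tested factor gene, arranged by factor group, with bars for the standard error. Purple points have an unadjusted p under 0.05 (11 of 60) and grey points do not. Both directions occur in most groups. The 3 eIF2 alpha kinases followed lie below 0, Eif2ak4 by less than its standard error.

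Of the 62 genes, 60 passed the filter on low counts. Eif3j1, a subunit gene of eIF3, had 0 counts in every library, which allows at most 3 counts, or 0.183 CPM in the shallowest. Its coding sequence is 100% identical to that of Eif3j2 over the compared stretch, so reads of the pair cannot be assigned. Eif4e1b, an oocyte form of the cap-binding protein, had 0 counts in 3 libraries and 4 in knockdown library 2. Eif3j2 had 4 and 6 counts in the controls and 27 and 18 after knockdown, and Eif4e3, another relative of eIF4E, had 10 and 16 against 1 and 8. Both of these passed the filter mainly through the group where they are higher, so they enter the counts above but support nothing.

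Levels between genes were compared as CPM per kilobase of transcript. Eef1a1, which encodes eEF1A, stood first at 3033 in the controls and 2496 after knockdown. In the controls Eef2 followed at 1173, then Eif4a1 at 932, Eef1g at 904 and Eif5a at 898. After knockdown Eef1g at 1283 and Eif5a at 1205 stood above Eef2 at 961 and Eif4a1 at 942. The control levels of Eif4a1, Eef1g and Eif5a lie close together, so their order in the controls is not resolved by these libraries. At the other end Eef1a2, the eEF1A form of muscle and neurons, was at 0.39 in both groups, and Eif4e3 at 0.29 and 0.08.

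eIF2, the carrier of the initiator tRNA, held the factor gene with the largest difference among those at 50 CPM or more. Eif2s2, its beta subunit, was at 379 and 436 CPM in the controls and at 661 and 741 CPM after knockdown. Both knockdown libraries lay well above both controls, which is 0.78 ± 0.15 on the log2 scale (adjusted p = 0.0752 by edgeR). Eif2s1, the alpha subunit that the stress kinases phosphorylate, was at 427 and 394 CPM in the controls and 563 and 519 CPM after knockdown, again without overlap (0.40 ± 0.14, adjusted p = 0.303 by edgeR). Eif2s3x, the X-linked gamma subunit, was at 290 and 199 CPM in the controls and 209 and 225 CPM after knockdown. Here the groups overlapped, with a log2 fold change of -0.17 ± 0.18. Its Y-linked partner Eif2s3y was far lower, at 17.95 and 10.5 CPM in the controls and 15.7 and 21.9 CPM after knockdown (0.41 ± 0.28). The subunits form a trimer with 1 copy of each, and the uniquely aligned counts of their mRNAs stood in different proportions in the 2 groups. Per length, Eif2s2 was 187% and 315% of Eif2s3x in the controls against 454% and 473% after knockdown. Eif2s1 was 158% and 212% of Eif2s3x in the controls against 288% and 247% after knockdown. Neither ratio overlapped between groups, although the 2 controls also differed from each other. Pseudogene copies reach 100% identity for Eif2s3x, 99.5% for Eif2s2 and 96.8% for Eif2s1, so both ratios are uncertain.

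These are 2 of 19 ratios between factor genes that were computed, several of them chosen after their values were seen. In 11 of the 19 the groups did not overlap, each with an exact permutation p of 0.333 (two-sided), the smallest possible, and 0.575 after Benjamini-Hochberg adjustment. The group of eIF2 and the carriers Eif2a and Eif2d summed to 1351 and 1248 CPM in the controls and 1674 and 1736 CPM after knockdown, a log2 ratio of 0.39 (exact permutation p = 0.333, the smallest possible). Its median log2 fold change over 6 genes was 0.24, and the part from Eif2s2 alone was 36.9% of the summed level.

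eIF2B, the complex that recharges eIF2 with GTP, was higher in sum after knockdown, at 565 and 578 CPM against 507 and 509 CPM in the controls (log2 ratio 0.17). Of its 5 genes, 4 had a log2 fold change above 0. Eif2b2, the beta subunit, was at 117 and 130 CPM in the controls and 147 and 152 CPM after knockdown (0.28 ± 0.14, adjusted p = 0.475 by edgeR). Eif2b5, the catalytic epsilon subunit, was at 230 and 214 CPM in the controls and 252 and 261 CPM after knockdown (0.21 ± 0.14). The alpha subunit Eif2b1 lay the other way, at 69.6 and 69.4 CPM in the controls and 59.0 and 60.8 CPM after knockdown (-0.22 ± 0.15).

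The eIF2 alpha kinases slow initiation under stress, and all 3 that were followed had log2 fold changes below 0. Eif2ak1 encodes HRI, the kinase that answers to heme shortage. It was at 58.1 and 55.7 CPM in the controls and 44.8 and 40.5 CPM after knockdown (-0.42 ± 0.16, adjusted p = 0.348 by edgeR). Eif2ak3 encodes PERK, the kinase of the endoplasmic reticulum. It was at 28.2 and 26.6 CPM in the controls and 19.1 and 19.6 CPM after knockdown (-0.50 ± 0.19, adjusted p = 0.344 by edgeR). In both genes the replicates lay close together and the groups apart. Eif2ak4, which encodes the amino acid sensor GCN2, overlapped between groups (-0.08 ± 0.19). All 3 genes have long transcripts, of 4325 to 5298 bases, and longer transcripts had lower fold changes among all genes. After adjusting for length and GC content Eif2ak1 was at -0.34 and Eif2ak3 at -0.39. The kinases summed to 111 and 108 CPM in the controls and 86.0 and 85.8 CPM after knockdown, a log2 ratio of -0.35 (exact permutation p = 0.333, the smallest possible).

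**Figure D2:**
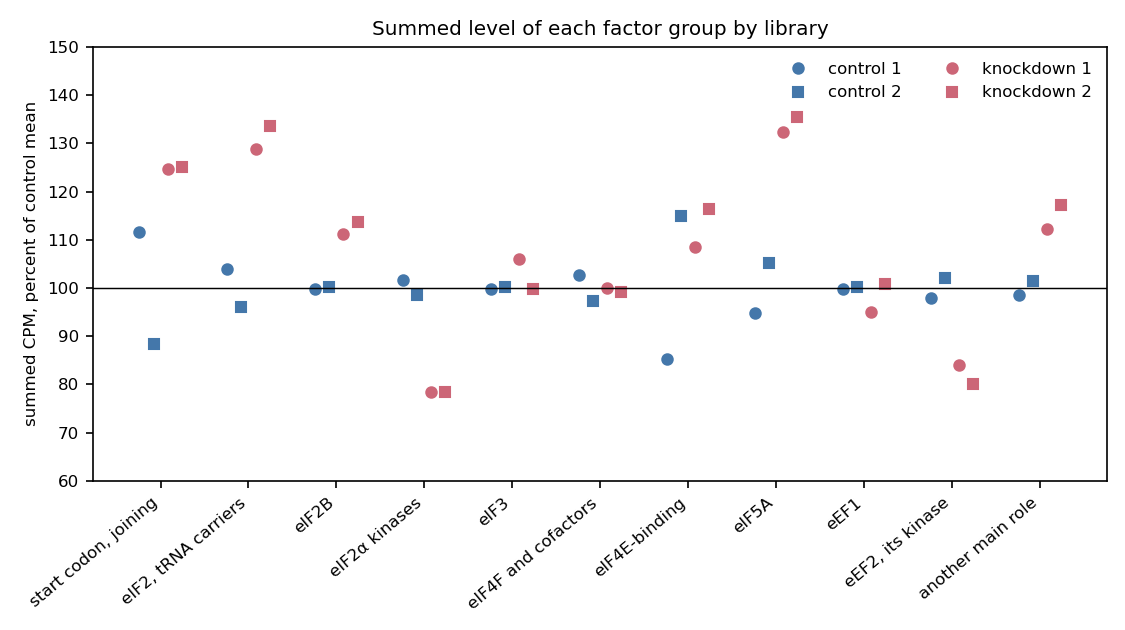
Summed CPM of each factor group in the 4 libraries, as a percent of the control mean, on an axis that starts at 60. The eIF2 and eIF5A groups lie above the controls in both knockdown libraries and the kinases and the eEF2 group below, while eIF3, eIF4F and eEF1 overlap. Eif5a alone made up 99.6% of the eIF5A sum and Eef2 99.3% of the eEF2 sum. Of the 12 sums compared, with that of all factor genes included, 8 did not overlap between the groups.

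The factors of start codon selection and subunit joining had 6 of 7 log2 fold changes above 0, with a median of 0.13. Eif1, which guards against wrong start codons, was at 782 and 502 CPM in the controls and 952 and 920 CPM after knockdown. The groups did not overlap, but control library 1 was nearer to the knockdown libraries than to control library 2 (0.54 ± 0.19, adjusted p = 0.303 by edgeR). Without control library 1 it was 0.90, and without control library 2 it was 0.26. Its close relative Eif1b was at 28.1 and 36.7 CPM in the controls and 46.8 and 45.3 CPM after knockdown (0.51 ± 0.18, adjusted p = 0.316 by edgeR), and 0.33 without control library 1. The pair of eIF1A genes lay on opposite sides of 0. Eif1ax was at 113 and 103 CPM in the controls and 128 and 144 CPM after knockdown (0.33 ± 0.15, adjusted p = 0.412 by edgeR). Eif1a was at 79.0 and 49.5 CPM in the controls and 50.7 and 45.9 CPM after knockdown (-0.41 ± 0.21). Per length, Eif1a was 167% and 114% of Eif1ax in the controls against 94.7% and 76.5% after knockdown. In CPM, Eif1ax was the higher of the pair in every library. Their order per length thus rests on the annotated transcript lengths, 5172 bases for Eif1ax and 2165 for Eif1a. Eif5, the GTPase-activating partner of eIF2, Eif5b, which joins the subunits, and Eif6, which keeps them apart, had log2 fold changes of 0.03 ± 0.15, 0.13 ± 0.19 and 0.09 ± 0.15.

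eIF3, the scaffold of the small subunit complex, showed little difference as a group. Its summed level was 4331 and 4350 CPM in the controls and 4603 and 4331 CPM after knockdown (log2 ratio 0.04, exact permutation p = 0.667). Of 13 genes tested, 8 had a log2 fold change above 0 and 5 below. Apart from the barely counted Eif3j2, the fold changes ran from -0.19 (Eif3f) to 0.33 (Eif3e). Eif3b, a core subunit, was at 698 and 631 CPM in the controls and 813 and 727 CPM after knockdown (0.21 ± 0.14, adjusted p = 0.599 by edgeR), and 0.12 without knockdown library 1. Eif3k, the highest per length, was at 301 and 333 CPM in the controls and 338 and 328 CPM after knockdown (0.07 ± 0.14). Though the subunits belong to one complex, their mRNA levels per length differed widely. In the controls they ran from 410 CPM per kilobase for Eif3k to 6.39 for Eif3e, with Eif3j1 and Eif3j2, whose reads cannot be assigned, lower still at 0 and 0.12. Eif3e has 1 pseudogene whose transcript is 96.0% identical to its coding sequence.

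The cap-binding complex eIF4F was level in sum, at 6477 and 6147 CPM in the controls and 6307 and 6263 CPM after knockdown (log2 ratio -0.01, exact permutation p = 1, and 0.05 with library size as the only scaling). Of its 10 tested genes 5 had a log2 fold change above 0 and 5 below. Eif4b, a cofactor that stimulates the helicase, differed most among its well-expressed genes. It was at 758 and 765 CPM in the controls and 550 and 546 CPM after knockdown, with replicates close together and groups far apart (-0.48 ± 0.14, adjusted p = 0.204 by edgeR). The helicase Eif4a1 itself was at 1711 and 1594 CPM in the controls and 1670 and 1672 CPM after knockdown (0.02 ± 0.14). Its sign turned with upper-quartile scaling, with the length and GC offset and without control library 2. The scaffold Eif4g1 was at 1382 and 1152 CPM in the controls and 1223 and 1020 CPM after knockdown (-0.18 ± 0.16). Its fold change was -0.01 after adjusting for length and GC content and ran from -0.32 to -0.04 with single libraries left out, near 0 without control library 1 or knockdown library 2. The cap-independent relative Eif4g2 was at 1541 and 1617 CPM against 1723 and 1872 CPM (0.19 ± 0.14). Eif4e, the cap-binding protein, differed more within the controls than between the groups. It was at 79.2 and 28.9 CPM in the controls and 47.7 and 35.9 CPM after knockdown, so that the controls enclosed both knockdown libraries. Its log2 fold change of -0.37 ± 0.44 became 0.53 without control library 1 and -0.93 without control library 2.

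Among the eIF4E-binding proteins 2 of 4 lay on each side of 0. Eif4ebp1, which encodes the mTOR target 4E-BP1, was at 397 and 622 CPM in the controls and 596 and 691 CPM after knockdown, and the groups overlapped (0.34 ± 0.20, adjusted p = 0.538 by edgeR). The fold change was 0.05 without control library 1 and 0.69 without control library 2. Eif4enif1, which encodes the eIF4E transporter, was at 99.7 and 92.1 CPM in the controls and 79.5 and 78.0 CPM after knockdown (-0.28 ± 0.15, adjusted p = 0.476 by edgeR). Eif4ebp2 and Eif4ebp3 overlapped between groups, with log2 fold changes of -0.14 ± 0.15 and 0.04 ± 0.30.

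The elongation factors lay on both sides of 0. Eef1g, a structural subunit of the exchange complex eEF1B, was at 1641 and 1728 CPM in the controls and 2411 and 2371 CPM after knockdown (0.51 ± 0.14, adjusted p = 0.195 by edgeR). Eef1a1, whose product is the partner that eEF1B recharges, was at 5541 and 5342 CPM in the controls and 4201 and 4753 CPM after knockdown (-0.28 ± 0.15, adjusted p = 0.485 by edgeR). The groups did not overlap in either gene, and they lay in opposite directions. Per length Eef1g was 28.5% and 31.1% of Eef1a1 in the controls against 55.2% and 48.0% after knockdown, a ratio chosen after its values were seen (exact permutation p = 0.333, the smallest possible). The other eEF1B subunits, Eef1b2 and Eef1d, had log2 fold changes of 0.16 ± 0.15 and 0.06 ± 0.14. In sum the eEF1 genes were level, at 8020 and 8065 CPM in the controls and 7634 and 8113 CPM after knockdown (log2 ratio -0.03, exact permutation p = 1, and 0.02 with library size as the only scaling).

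Eef2, the translocation factor, was at 3542 and 3703 CPM in the controls and 3042 and 2896 CPM after knockdown (-0.29 ± 0.14, adjusted p = 0.459 by edgeR). Both knockdown libraries were lower. Its inhibitory kinase Eef2k was at 25.1 and 21.1 CPM in the controls and 19.4 and 21.3 CPM after knockdown (-0.18 ± 0.20), and overlapped. It was -0.01 after adjusting for length and GC content, -0.05 without control library 1 and -0.31 without control library 2. Eif5a was at 1223 and 1356 CPM in the controls and 1713 and 1750 CPM after knockdown (0.43 ± 0.14, adjusted p = 0.272 by edgeR). Its scarce paralog Eif5a2 was at 7.30 and 7.73 CPM in the controls and 4.66 and 6.83 CPM after knockdown (-0.39 ± 0.31), with -0.15 without knockdown library 1 and -0.69 without knockdown library 2. Per length Eif5a2 was 0.171% and 0.163% of Eif5a in the controls against 0.0777% and 0.112% after knockdown.

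The remaining 3 genes carry factor names but have another main role. Eif4a3, the helicase of the exon junction complex, was at 232 and 244 CPM in the controls and 282 and 285 CPM after knockdown (0.25 ± 0.14, adjusted p = 0.504 by edgeR). Eif1ad, which acts in ribosome maturation, was at 89.1 and 86.6 CPM in the controls and 95.9 and 100.3 CPM after knockdown (0.16 ± 0.14). Eef1e1, a scaffold of tRNA synthetases, overlapped between groups (0.00 ± 0.17).

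**Figure D3:**
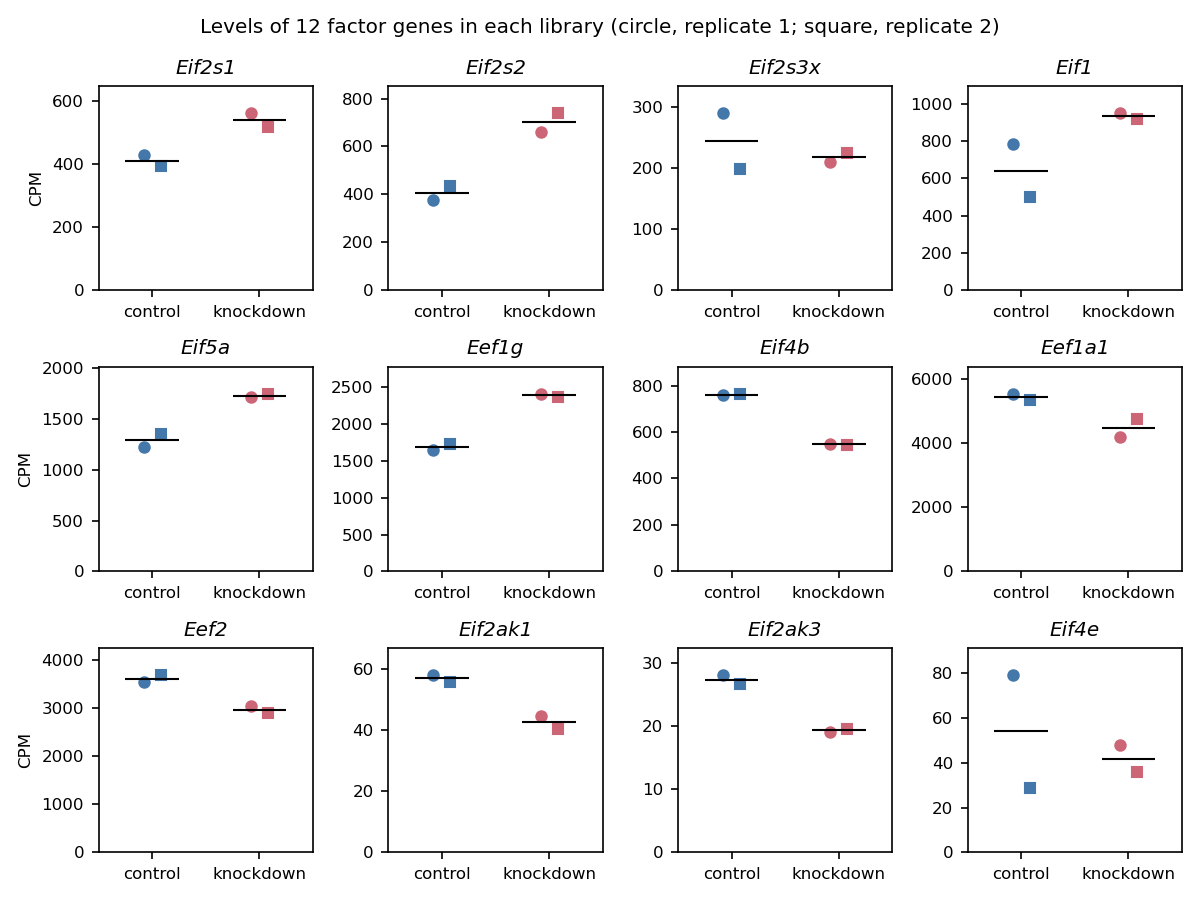
CPM of 12 factor genes in each library, with circles for replicate 1, squares for replicate 2 and a line at each group mean. Eif2s2, Eef1g and Eif5a lie higher in both knockdown libraries, Eif4b, Eef2 and both kinases lower, and in Eif4e the 2 controls at 79.2 and 28.9 CPM enclose the knockdown libraries.

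Longer transcripts had lower fold changes, among the factor genes and among all genes. Over all genes, the median log2 fold change in 5 equal classes of transcript length was 0.13, 0.05, 0.00, -0.05 and -0.14 from the shortest to the longest. The factor genes in these classes numbered 13, 22, 7, 9 and 9, with medians of 0.19, 0.12, 0.14, -0.37 and -0.10. In the shortest class 2 of 13 factor genes were below 0, and in the next to longest 7 of 9. With the offset for length and GC content the median of the factor genes was 0.02, against 0.01 for all genes. Under that offset Eif2s2 came to 0.63 on the log2 scale (adjusted p = 0.13 by edgeR).

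**Figure D4:**
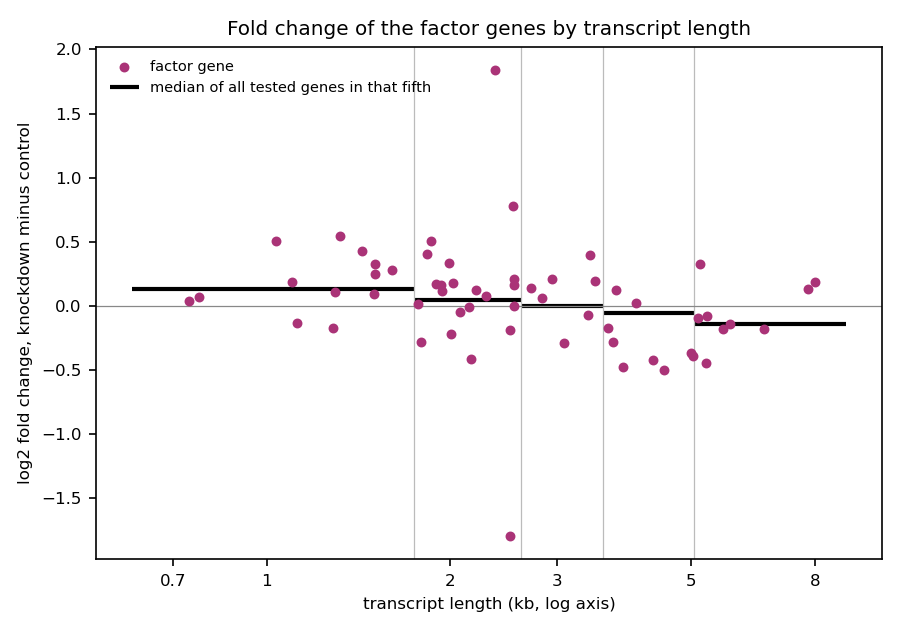
Log2 fold change of each factor gene against transcript length on a log axis, with the median of all tested genes in each of 5 length classes. The medians of all genes go from 0.13 to -0.14 with length, and factor genes below 0 number 7 of 9 in the next to longest class and 6 of 9 in the longest.

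Many genes of the translation machinery have processed pseudogenes, and reads that match a gene and its copy equally well have no unique alignment and are absent from the counts. Reads without a unique alignment, whatever their origin, made up 32.8% and 30.2% of all tallied reads in the controls, against 28.7% and 26.1% in the knockdown libraries. Transcripts of other genes in GENCODE M21 were compared with each coding sequence, at 95% identity or more over at least 50% of its length. At least 1 pseudogene copy was found for 15 of the 62 factor genes, and 37 copies in all, of which Eif1 had 12, Eef1a1 had 7, and Eef1g and Eif4a1 had 3 each. Eif2s1 had 2, and Eif2s2, Eif2s3x, Eif5a, Eif4e and Eef2 had 1 each, so the levels of these genes are uncertain. Counting copies of either kind, the median log2 fold change was 0.11 over 17 tested genes with a copy and 0.07 over 43 without. The part of unassigned reads in these fold changes was not tested.

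Many mRNAs of the translation machinery begin with a C followed by pyrimidines, the 5′ TOP motif that mTOR signalling acts on. RefSeq promoter windows (GRCm38.p6, 250 bases before to 50 after the annotated start) matched 48 of the 62 factor genes. A C followed by at least 4 letters C or T on the gene's strand stood exactly at the annotated start in 2 of the 48 (4.17%), beside 3.09% of 9771 tested genes. Within 5 bases of the start it stood in 14 (29.2%), beside 23.8%. The start used in these cells was not measured and may differ from the annotated one, so the other factor genes are not shown to lack the motif. The 2 genes with the tract at the annotated start are shown from 5 bases before it, with the tract in capitals.
Eif2s3x (chrX:94212627-94212656, - strand): ttttcCTTTTCTCTCCgagcaagatggctg
Eif3f (chr7:108934410-108934439, + strand): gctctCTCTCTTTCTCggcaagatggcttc
Neither gene passed the test (log2 fold changes of -0.17 ± 0.18 and -0.19 ± 0.15). The palindrome CACGTG, the letters of the E-box read by Myc and related factors, was in the windows of 12 of the 48 factor genes (25%), beside 12.1% of tested genes and 8.09% of all 27025 symbols in the table. Of these 12 genes 5 had a log2 fold change above 0 and 7 below, with a median of -0.14, and the median was 0.12 for the 35 tested factor genes without it. Over all tested genes the median was -0.005 with the letters and -0.001 without, and these letters are a description, not a bound site.

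The 6 lists of other genes that act with the factors were read from the same fit, and none of their members passed the adjusted threshold in that fit. Among 12 genes of termination, recycling and ribosome rescue, 8 lay above 0 on the log2 scale, with a median of 0.12. The lowest p values were those of Gspt1, which encodes the release factor eRF3, at 276 and 275 CPM in the controls and 416 and 371 CPM after knockdown (0.51 ± 0.14, adjusted p = 0.188 by edgeR), and of the ribosome rescue factor Pelo (0.59 ± 0.16, adjusted p = 0.194 by edgeR). Among 14 tested poly(A)-binding proteins, helicases and other partners of eIF4F, 3 were higher (6.18% of all genes) and 3 lower (5.43%) at an unadjusted p under 0.05. Paip2, an inhibitor of the poly(A)-binding protein, had a log2 fold change of 0.48 ± 0.15, and 0.21 after adjusting for length and GC content. Angel1, an eIF4E-binding protein, had -0.92 ± 0.27. Without knockdown library 1 it was -1.34, and without knockdown library 2 it was -0.59. With no filter on low counts, Angel1, Gspt1 and Pelo passed (adjusted p = 0.00914, 0.0466 and 0.0336 by edgeR). In that setting 174 of 17005 genes passed as higher and 158 as lower.

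None of 15 genes of mTOR and MNK signalling reached an unadjusted p under 0.05 (11.6% of all genes did), and their median was 0.01. The kinase Mtor had a log2 fold change of -0.33 ± 0.16 and its activator Rheb 0.34 ± 0.18. Mtor was at -0.09 after adjusting for length and GC content, -0.11 without control library 1 and -0.52 without control library 2, and Rheb at 0.15 without knockdown library 2. Of 13 genes of the eIF2 alpha phosphatases and the stress response tied to the kinases, 9 lay above 0, with a median of 0.28. The groups did not overlap, however, in only 2 genes that were higher (22.3% of all genes) and 2 that were lower (21.3%). In the other 9 of the 13 they overlapped. Atf4, the transcription factor of that response, was at 196 and 343 CPM in the controls and 300.2 and 496 CPM after knockdown, and its target Ddit3 at 0.79 and 9.16 CPM against 2.11 and 10.5 CPM. In both, the libraries of a group differed as much as the groups did. Asns, asparagine synthetase and a known target of that response, was at 218 and 209 CPM in the controls and 280 and 318 CPM after knockdown (0.49 ± 0.14, adjusted p = 0.206 by edgeR). The phosphatase subunit Ppp1ca had 0.28 ± 0.15, and 0.15 without control library 1. These 2 were the only genes of the list with both knockdown libraries above both controls (22.3% of all genes). Of 12 tested genes for making hypusine, the modified residue of eIF5A, diphthamide, that of eEF2, or polyamines, 9 lay above 0 (median 0.16). Sms, the polyamine enzyme spermine synthase, had a log2 fold change of 0.51 ± 0.17. Dohh, the last enzyme of hypusine synthesis, had 0.33 ± 0.15, or 0.19 without control library 1. Among 12 mitochondrial translation factors 7 lay above 0 and 5 below, and none reached an unadjusted p under 0.05. Gfm1 and Mrrf, the mitochondrial elongation and recycling factors, had log2 fold changes of -0.22 ± 0.15 and -0.29 ± 0.22. They were -0.12 without control library 1 and -0.18 without knockdown library 2, respectively.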

How the data were processed

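The deposited files hold raw counts of reads per gene symbol, 1 file per library, with whole numbers and unequal totals. The submitters' processing notes name the build mm9 and the tools TopHat (alignment software), HTSeq (read counting), SAMtools and bedtools, and libraries were poly(A)-selected and strand-specific (dUTP) per the labels' protocols. For their versions, the annotation and the strand setting the sources used here give nothing, so counts of overlapping genes are uncertain. Reads outside genes (6.39% to 7.61%), ambiguous (0.459% to 0.6%) or without a unique alignment (26.1% to 32.8%) were left out. Groups came from sample titles.

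The test of the counts used edgeR 4.0.16 (R 4.3.3): filterByExpr (minimum count 10), TMM, robust glmQLFit and glmQLFTest, group as the only term, two-sided, Benjamini-Hochberg over 13199 genes, threshold 0.05. SE is the size of the log2 fold change divided by the root of F. DESeq2 1.42.0, limma 3.58.1 (voom), other scalings and filters, a length and GC offset (splines, 4 df), a replicate block and leaving out each library were alternatives. The test was checked on simulated data. Lengths and 3′ UTRs came from GENCODE M21 by symbol, and copies from BLAST 2.17.0. Printed coordinates are GRCm38, not the files' build. The length is of the longest transcript among those with near the longest coding sequence.

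The members, groups, lists and tests were chosen with earlier results of these data known. The genes named are, in each factor group, the 2 with the lowest p and the 1 with the highest level per length, those at an unadjusted p under 0.05, paralog pairs, Eif2s1, Eif4e, Eif4g1, Eef1a1 and Eef2, and in each list the 2 with the lowest p. Other genes are named as examples, chosen after their values were seen. Replicates differed by far more than sampling noise (chi-square over its degrees of freedom 25.4 between controls and 20.5 between knockdown libraries), so each library counted as 1 replicate.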

Additional observations from a re-analysis of the deposited data

Results flagged for a closer look

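Reads that the counting found ambiguous between genes enter no comparison, and their share was higher in both knockdown libraries (0.568% and 0.6% of tallied reads) than in the controls (0.459% and 0.513%). Eif4e1b, which was too low to test, had 4 counts in knockdown library 2 and 0 in the other 3 libraries.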

How the results depend on the processing

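With 2 libraries a group, 16 alternatives were run, and the cause of the differences below was not tested. The number of factor genes passing the adjusted threshold as higher was 0 in the main test, 1 with library size only, 2 without the filter on low counts and 1 with DESeq2. Of all genes, 32, 174 (of 17005) and 72 passed as higher under these settings, against 5 in the main test. The number of factor genes passing as lower was 0 in these (18, 158 and 64 of all genes, against 6). With a library left out, which leaves 1 library in a group, Eif2s2 ran from 0.684 to 0.886 on the log2 scale. At an unadjusted p under 0.05, higher factor genes numbered 8 in the main test, 4 with the length and GC offset and 2 to 9 with a library left out (fewest without knockdown library 1). Lower ones numbered 3, against 6 with limma-voom, 6 with the offset and 1 to 7 with a library left out (most without control library 2).

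The median log2 fold change of the factor genes was 0.075, against 0.056 with upper-quartile factors, 0.129 with library size only, 0.017 with the offset and 0.047 to 0.092 with a library left out. Relative to the median of all genes it was 0.076 to 0.078 under the scalings. Cyrano missed the threshold with limma-voom (-2.424, adjusted p = 0.0512) and without control library 1 or 2 (range of the 4 left-out fits -2.792 to -2.082, adjusted p = 0.12 and 0.0567 for these).

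Replicate numbers come from the titles, which name no shared source, so whether libraries of the same number are paired is not known. Deviations of same-numbered libraries from their group means correlated at 0.244 over all genes and 0.351 over the factor genes. The pairing was tried only as an alternative. With the replicate block, 6 factor genes passed as higher and 1 as lower (504 and 451 of all genes, against 5 and 6). At an unadjusted p under 0.05, 11 were higher and 7 lower, beside 20.3% of all genes in either direction. With the block and the offset together, 2 passed as higher and 2 as lower, with 13 and 10 at an unadjusted p and a median of 0.030. Of all 13113 genes tested in that setting, 314 passed as higher and 241 as lower, and 20.9% had an unadjusted p under 0.05.

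Among the named genes and summed levels, signs turned only where the log2 value was near 0 or 1 library decided it. Eif3k was -0.025 with the offset, alone or with the block, and -0.003 to 0.144 with a library left out. Eif4a1 was -0.004 with upper-quartile factors, -0.081 with the offset, -0.080 with block and offset, and -0.036 to 0.067 with a library left out. Eif4e ran from -0.925 to 0.532. With library size only the summed eIF4F level had a log2 ratio of 0.048 and eEF1 of 0.024. With a library left out, these ran from -0.043 to 0.032 and from -0.075 to 0.013, eIF3 from -0.003 to 0.085 and the 4E-BPs from -0.031 to 0.4. Of 430 values of the named factor genes under alternatives, 407 kept direction and side of the threshold, 15 came to pass it and 8 turned sign; of 192 values of the named list genes, 14 came to pass it and none turned sign. Of 176 group medians, 33 moved by more than the replicate spread. Low counts limit Eif3j2, Eif4e3 and Eef1a2.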
